A study of Homo sapiens with 6 samples.

Results

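The 2 ends of a differentiation of human embryonic stem cells into cardiac organoids, day 0 and day 30, were compared gene by gene. Of 58735 genes in the deposited table, 17874 had an FPKM of at least 1 on either day and entered the comparison. FPKM is a read count divided by gene length and by a denominator for the library. A difference of at least 1 in log2(FPKM + 1) counted as higher or lower. A gene was called on when it lay under 0.1 FPKM at day 0 and at 10 FPKM or more at day 30, and off when it did the reverse. By these rules 158 genes were on (0.884% of those compared) and 70 were off (0.392%). The 228 genes were then grouped by function by hand after their values had been seen.

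The cells were H9, a widely used human embryonic stem cell line, with no genetic change named in the labels. Between day 0 and day 30 the labels give 4 further time points, at days 2, 3, 4 and 6, with 1 library each and 10 organoids harvested for each. No agent or dose is named for any day, and the day 30 sample carries the same cell type label, embryonic stem cell, as day 0. Because each day had 1 library of pooled organoids, no difference has a replicate check and no p-value is given. Folds carry 95% intervals from the recovered reads, and these cover counting error only, not variation between cultures or the choice of scaling. For a gene with 0 reads on a day, "at least" gives the fold that 3 reads in that library would allow. In a bulk sample, fewer cells of a type and less RNA per cell cannot be told apart.

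Pluripotent stem cells hold a self-sustaining network of transcription factors, with POU5F1 (OCT4), SOX2 and NANOG at its centre. Cells that leave this state towards the heart pass through mesoderm, in which GATA, TBX and HAND factors come on before the contractile proteins. Fibroblasts, epicardium and vessel cells arise from neighbouring mesoderm, while liver and gut cells arise from endoderm, the germ layer next to the forming heart.

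The promoters of 5 genes and 3 small RNAs are shown first, because each stands for a set of genes that switched between the 2 days. The promoters belong to 2 inflammatory genes (CXCL8 and IL6), a liver gene (AFP), a heart muscle gene (MYH6) and a stem cell factor (NANOG). Each is the 250 bases before the gene's start in RefSeq on GRCh38.p14, written 5′ to 3′ along the gene. For all 5 genes the span in the deposited table begins upstream of that RefSeq start. Capitals mark matches to 5 motifs searched on both strands, spelled GGNNTTTCC, where N is any base (like the NF-kB site), GTTAAT, any 2 bases and TT (like the HNF1 site), TATAAA (the TATA box), CATTCC (the M-CAT element of muscle genes) and TTGCAT, any 1 base and ACAATG (the composite OCT4 and SOX2 site). The marked matches do not overlap each other.
CXCL8, chr4:73740319-73740568, plus strand: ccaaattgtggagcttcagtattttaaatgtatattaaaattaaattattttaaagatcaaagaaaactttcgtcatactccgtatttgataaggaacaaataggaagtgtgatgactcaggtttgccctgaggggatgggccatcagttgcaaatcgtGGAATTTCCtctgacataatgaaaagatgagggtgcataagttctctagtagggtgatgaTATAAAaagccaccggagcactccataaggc
IL6, chr7:22726950-22727199, plus strand: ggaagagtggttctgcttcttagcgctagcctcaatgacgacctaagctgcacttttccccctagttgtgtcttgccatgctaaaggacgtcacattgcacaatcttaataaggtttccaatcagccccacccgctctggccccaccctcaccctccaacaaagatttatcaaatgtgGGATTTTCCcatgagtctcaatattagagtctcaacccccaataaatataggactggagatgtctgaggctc
AFP, chr4:73435971-73436220, plus strand: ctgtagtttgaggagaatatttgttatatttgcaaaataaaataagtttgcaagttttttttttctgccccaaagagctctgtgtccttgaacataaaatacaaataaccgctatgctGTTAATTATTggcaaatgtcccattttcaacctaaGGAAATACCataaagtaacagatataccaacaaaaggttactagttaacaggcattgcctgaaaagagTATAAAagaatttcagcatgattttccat
MYH6, chr14:23408274-23408523, minus strand: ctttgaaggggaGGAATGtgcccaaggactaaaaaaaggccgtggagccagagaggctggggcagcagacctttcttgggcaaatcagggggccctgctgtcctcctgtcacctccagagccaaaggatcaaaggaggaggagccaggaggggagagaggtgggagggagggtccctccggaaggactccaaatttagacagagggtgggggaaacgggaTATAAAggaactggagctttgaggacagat
NANOG, chr12:7789152-7789401, plus strand: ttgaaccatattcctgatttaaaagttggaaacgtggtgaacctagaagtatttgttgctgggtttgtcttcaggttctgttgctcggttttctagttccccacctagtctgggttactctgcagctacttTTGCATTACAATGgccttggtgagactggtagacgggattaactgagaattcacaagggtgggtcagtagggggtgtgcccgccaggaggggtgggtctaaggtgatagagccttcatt

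The motif like the NF-kB site stood in 7 of the 17 promoters found for the inflammatory on genes (CXCL8, CCL20, IL18R1, IL6, VCAM1, IL18RAP and CXCL10), or 41.2%, against 5.48% of all 27305 RefSeq promoters of the same length. The motif like the HNF1 site stood in 4 of 15 liver promoters (AFP, FGB, FGA and FABP1), or 26.7%, against 0.809% of all, and the AFP promoter also held the motif like the NF-kB site, on the opposite strand. TATAAA was found in 8 of the 17 inflammatory promoters and in 2 of 7 heart muscle promoters, MYH6 and TRIM63, against 11.1% of all. It was also in 5 of 15 liver and 3 of 12 epithelial promoters, and in none of 9 promoters of heart and mesoderm factors. CATTCC was found in 3 of the 7 heart muscle promoters (MYH6, ANKRD1 and TRIM63) against 11.9% of all, and in MYH6 it lies on the opposite strand, so the capitals there read GGAATG. The motif of muscle genes was also in 4 of 15 liver, 3 of 12 epithelial and 1 of 17 inflammatory promoters. It was in 2 of 8 promoters of metabolism and other coding genes, and in none of 9 of heart and mesoderm factors. It was thus not confined to heart muscle promoters. The composite OCT4 and SOX2 motif was in the NANOG promoter and in 3 of all 27305. These matches describe letters in a window, and no binding was measured. RefSeq promoters were found for 115 of the 228 genes.

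The mature small RNAs encoded by the MIR302A, MIR302C and MIR367 genes are shown with the seed, bases 2 to 8, in capitals. Messenger RNA was selected by poly-T beads, so reads over these genes come from longer transcripts and not from the mature forms.
hsa-miR-302a-3p: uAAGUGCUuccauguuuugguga
hsa-miR-302c-3p: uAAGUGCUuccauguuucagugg
hsa-miR-367-3p: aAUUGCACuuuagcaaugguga

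The first 2 share the seed AAGUGCU. All 3 genes lie within 0.556 kb at chr4:112647874-112648430 on the minus strand, inside LARP7 on the opposite strand. MIR302A had 30.9 FPKM at day 0, 72.7 at day 3, 31.0 at day 6 and 0 at day 30. MIR302C had 19.2, 61.5, 23.0 and 0 FPKM on the same days, and MIR367 had 61.7, 88.2, 33.2 and 0. Thus reads over the cluster lasted to day 6 and were absent at day 30. They rest on 31, 19 and 61 reads at day 0, and LARP7 itself fell from 43.3 to 3.13 FPKM. Whether counting used strand is not given in the sources used here, so reads of the 2 strands cannot be told apart.

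Across all genes compared, 4635 were higher at day 30 (25.9%) and 3406 were lower (19.1%), so 8041 or 45.0% were called either way. The median difference was 0.13. Scaling both libraries by their total reads gave 3729 higher and 4039 lower, so the balance between the directions rests on the scaling of the deposited values. That scaling moved the median of all genes by -0.19, a shift to set beside the differences below. Total recovered reads were 14824424 at day 0 and 14962790 at day 30, and genes with at least 1 FPKM numbered 14357 and 15457. Reads on the mitochondrial genome were 7.51% of the day 0 library and 1.91% of the day 30 library.

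**Figure D1:**
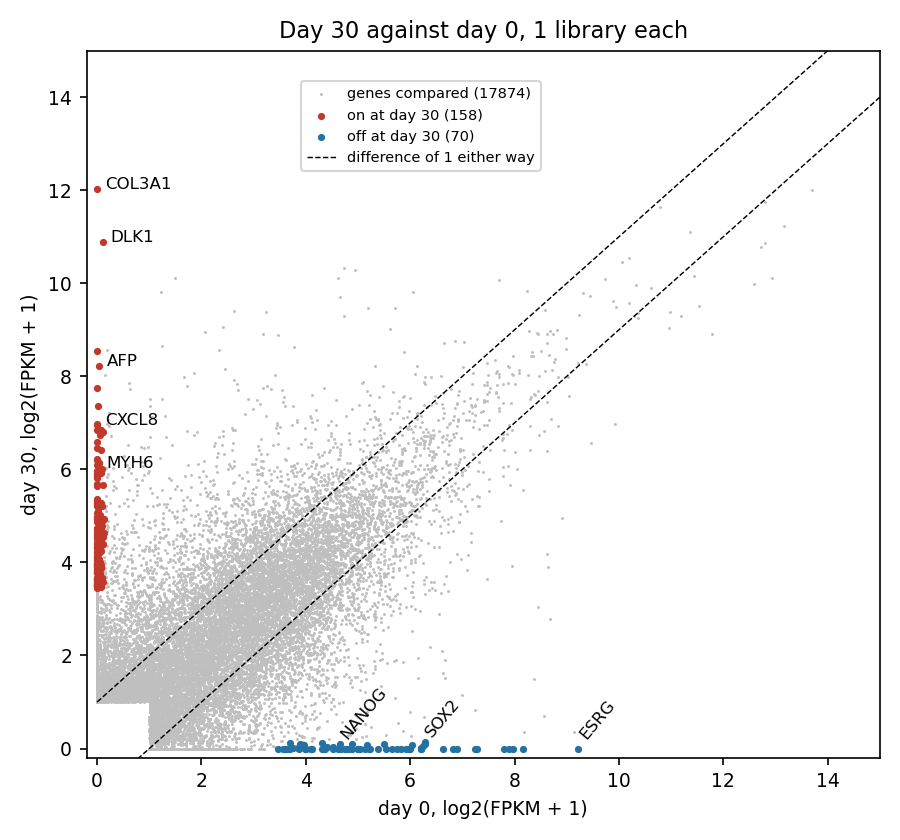
Each point is 1 of 17874 genes, with log2(FPKM + 1) at day 0 on the x axis and at day 30 on the y axis. Red points are the 158 genes on at day 30, blue points the 70 off at day 30, and dashed lines mark a difference of 1. COL3A1 stands highest among the on genes, at 4173 FPKM, and ESRG farthest along the x axis among the off genes, at 591 FPKM.

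Genes that switched on and genes that switched off were of different kinds. Protein-coding genes were 73.7% of those compared, 139 of 158 on genes (88.0%) and 24 of 70 off genes (34.3%). Long noncoding RNAs of all classes together were 12.7% of those compared, 8 on genes (5.06%) and 33 off genes (47.1%). The deposited table lists a transcription factor family for 22 on genes, 9 off genes and 1098 of all genes compared. The thresholds fall within a continuum. Among protein-coding genes, RTL1 at 10.1 and GLIS3 at 10.2 FPKM at day 30 were just inside the upper limit, and CCL4L2 at 9.85 and NR1H4 at 9.53 just outside. TMEM176A at 0.0989 FPKM at day 0 was just inside the lower limit and BDKRB2 at 0.101 just outside. For the off genes, C9orf135 at 11.2 and GDF3 at 11.6 FPKM at day 0 were inside and PREX2 at 9.69 outside, while at day 30 ZSCAN10 at 0.0976 was inside and CHST8 at 0.106 outside.

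Depth sets how firmly a gene can be called silent. Of the 158 on genes, 86 had 0 reads at day 0, 48 had 1 to 3 and 24 had more, up to 20. Of the 70 off genes, 52 had 0 reads at day 30, 16 had 1 to 3 and 2 had 4. In a gene shorter than 688 bases at day 0, or 809 bases at day 30, 1 read already exceeds 0.1 FPKM, so 18 on genes and 27 off genes could pass the lower limit with 0 reads alone. On the day they were on, on genes had a median of 967 reads and at least 8, and off genes a median of 554 and at least 10.

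Stem cell transcription factors were the largest coding group among the off genes, with 12 members. SOX2, which pairs with OCT4 on DNA, had 74.7 FPKM at day 0, 19.6 at day 2, 7.41 at day 3, 1.86 at day 4, 0.184 at day 6 and 0.0322 at day 30. NANOG had 23.4, 11.3, 2.12, 0.434, 0.0751 and 0 FPKM on the same days. PRDM14, a repressor that guards the pluripotent state, had 31.0, 3.28, 1.17, 0.311, 0 and 0. These 3 factors were thus nearly gone by day 6. NANOGP8, a near-identical copy of NANOG without introns, was listed at 61.9 FPKM at day 0 and 0 at day 30. Reads of NANOG and NANOGP8 may have been split between them, so the level of each is uncertain. UTF1, a chromatin protein of undifferentiated cells, fell from 28.7 to 0 FPKM, and HES3, a repressor of the Notch-responsive HES family, from 40.8 to 0.

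Other stem cell factors left later. ZIC2, a zinc finger factor of early neural tissue, had 73.4 FPKM at day 0, 121 at day 2, 78.6 at day 3, 32.2 at day 4, 9.59 at day 6 and 0 at day 30, and its neighbour ZIC5 had 20.1, 17.9, 10.2, 3.74, 1.75 and 0.0174. VRTN, a factor linked to vertebral number, had 30.9, 56.2, 70.4, 34.0, 10.6 and 0. ZIC2 and VRTN were thus higher on days 2 and 3 than at day 0 before they went off. ZSCAN10 still had 14.7 FPKM at day 6, from 77.2 at day 0, and FOXD3 fell from 13.9 to 0.0776 FPKM.

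The core factor POU5F1 missed the off rule. It had 561 FPKM at day 0, 352 at day 2, 100.2 at day 3, 34.5 at day 4, 3.68 at day 6 and 0.280 at day 30, from 10 reads. Its fold was 2008 (1092 to 4189). Its log2(FPKM + 1) fell by 8.78, the greatest fall of a protein-coding gene on that scale, although genes nearer to 0 reads at day 30, such as PTPRZ1 and SOX2, had larger folds with wide intervals that overlap its own. LIN28A, which blocks processing of let-7 RNAs, had 380 FPKM at day 0 and still 275 at day 6, and then 0.626 at day 30. Its course differed from that of POU5F1 in that nearly all of the fall lay after day 6. L1TD1, an RNA-binding protein of transposon origin, fell from 288 to 0.273 FPKM and DPPA4 from 333 to 1.81. TDGF1, the co-receptor for NODAL, fell from 150.5 to 0.781. DNMT3B, the DNA methyltransferase of early embryos, fell from 409 to 5.93 FPKM, a fold of 69.1 (62.1 to 77.1). The other greatest falls of coding genes were those of PTPRZ1, ZSCAN10, POLR3G, USP44, SEPHS1, SOX2, ZIC2 and C13orf42.

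Of the 34 pluripotency genes listed, 28 were lower, 1 was higher, 3 were compared but not called and 2 lay under 1 FPKM on both days. Their summed level was 3532 FPKM at day 0 and 64.2 at day 30, and the median difference was -4.0. The member that rose was KLF4, a reprogramming factor that epithelial and vessel cells also use, from 2.18 to 19.4 FPKM. The day 30 label, embryonic stem cell, thus stood beside near-zero levels of the defining stem cell factors.

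Long noncoding RNAs formed the largest off group, with 33 members and a median of 49.3 FPKM at day 0, 10.6 at day 2, 2.67 at day 3, 0.643 at day 4, 0.0485 at day 6 and 0 at day 30. ESRG, a transcript used as a marker of human pluripotent cells, had 591, 133, 17.3, 3.00, 0.239 and 0 FPKM at chr3:54632122-54639857. LINC00678 had 222.3, 40.2, 6.10, 1.90, 0.0497 and 0. LNCPRESS2 had 118 FPKM at day 0 and HPAT5, derived from an endogenous retrovirus, 63.2, and both were at 0 at day 30. Of the 33, 16 were last at 10 FPKM or more at day 0 and 10 at day 2. The group thus left mostly within the first days. The exceptions that lasted longest were AC022140.2, last at 10 FPKM or more at day 6, and AC009055.2, at day 4.

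**Figure D2:**
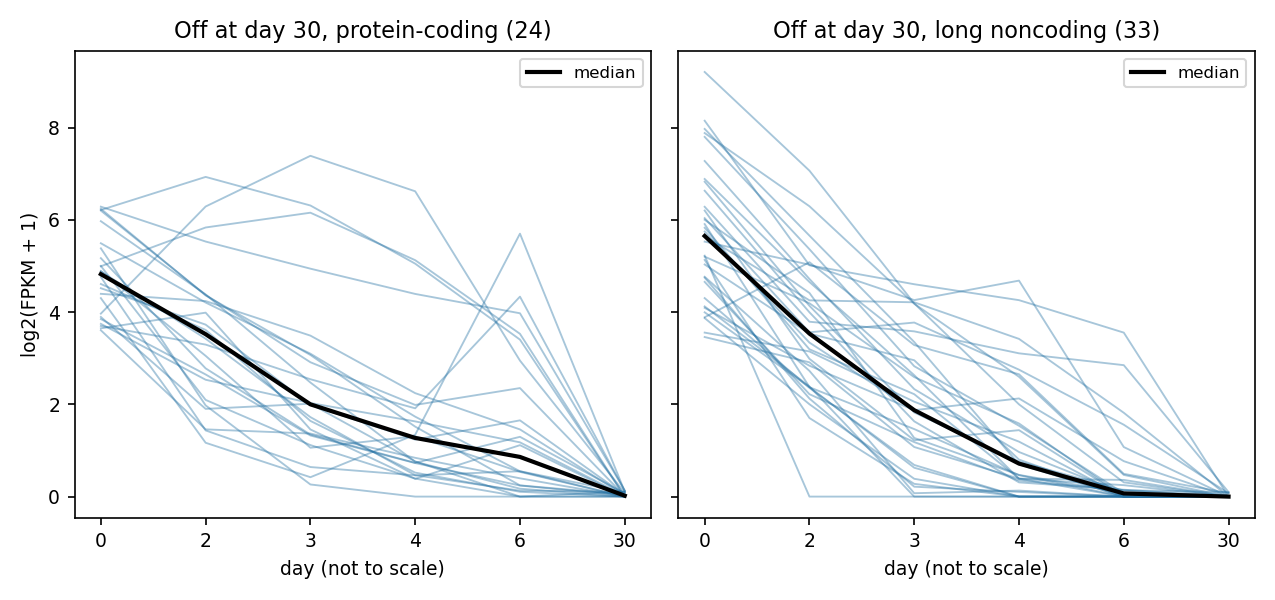
Thin lines are genes off at day 30, with log2(FPKM + 1) on the y axis and the day on the x axis, spaced evenly and not to scale. The left panel holds the 24 protein-coding genes and the right panel the 33 long noncoding RNAs. The black line is the median, which for noncoding RNAs goes from 49.3 FPKM at day 0 to 0.0485 at day 6.

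The remaining off genes were few. Genes of nerve cells and secretion numbered 5, led by PTPRZ1, a receptor phosphatase of neural progenitors, at 72.7 FPKM at day 0 and 0.00816 at day 30, and NEFL, the light neurofilament, at 28.6 and 0.0748. Secreted signals were GDF3, a NODAL-like ligand, and APELA, a ligand of the apelin receptor that acts in heart formation. APELA had 18.8 FPKM at day 0, 1.25 at day 2, 0.339 at day 3, 1.54 at day 4, 51.1 at day 6 and 0.0786 at day 30. It was thus off at day 30 after a level at day 6 above that of day 0. UGT3A2, a sugar transferase, also peaked at day 6, at 19.2 FPKM. Of 8 small RNA genes off, 6 overlapped a gene of at least 1 FPKM, and MT-TR, a mitochondrial transfer RNA, was listed at 151 FPKM from 143 reads at day 0 and at 0 at day 30. Pseudogenes numbered 5, among them HLA-DPB2 and HLA-DPA3, whose reads may be shared with other HLA genes. Of all 70 off genes, 60 were highest at day 0, 46 were under 1 FPKM at day 6 and 29 under 0.1.

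Of the 4 on genes that first reached 10 FPKM at day 2, 3 were transcription factors of heart and mesoderm. GATA6, a zinc finger activator of heart and endoderm, had 0 FPKM at day 0, 65.4 at day 2, 63.9 at day 3, 42.8 at day 4, 52.7 at day 6 and 57.1 at day 30. GATA4, its close relative, had 0.0465, 16.2, 26, 29.3, 60.5 and 60.1 FPKM. HAND2, a helix-loop-helix factor of the heart fields, had 0, 0.0517, 1.24, 10.5, 41.0 and 95.4. GATA6 thus stood near its final level at day 2, GATA4 at day 6, and HAND2 went on rising to day 30. TBX3, a T-box repressor of the conduction system, had 0.0694 FPKM at day 0, 27.3 at day 2, 44.7 at day 6 and 28.8 at day 30. TBX20, which acts with GATA4 and NKX2-5, had 0, 0.166, 2.86, 4.39, 19 and 25.9.

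A later set of these factors first reached 10 FPKM at day 30. NR2F2, an orphan nuclear receptor of atrial and venous cells, had 0.0107 FPKM at day 0, 2.13 at day 6 and 37.1 at day 30, and NR2F1 had 0.0160, 0.134 and 33.3. WT1, a factor of epicardium and kidney, had 0, 0.900 and 14.8 FPKM, and BNC1, a factor of mesothelium, 0.0431, 7.43 and 14.2. Of the 14 factors, 9 reached 10 FPKM by day 6 and 4, among them GATA4, TBX3 and PRRX1, were higher at day 6 than at day 30. The neighbouring genes HOXB2, HOXB3 and HOXB4, which mark position along the body axis, were on within chr17:48540894-48604912. HOXB2 had 0.0589 FPKM at day 0, 41.6 at day 6 and 14.2 at day 30, HOXB3 had 0.0185, 20.4 and 14.9, and HOXB4 had 0, 15.1 and 15.8. HOXB2 and HOXB3 were thus higher at day 6. Of 39 HOX genes listed, 9 were higher, none was lower and 30 lay under 1 FPKM on both days.

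Of 28 cardiac transcription factors listed, 20 were higher and 1 lower, with a median difference of 1.38. NKX2-5, the homeobox factor of heart muscle, rose from 0.230 to 8.12 FPKM and was at 9.31 on day 4. HAND1 rose from 0.436 to 37.7 FPKM after 277 at day 6. IRX2 went the other way, from 5.31 to 1.70.

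Heart muscle genes gave 10 of the on genes. MYH6, the atrial heavy chain of the thick filament, had 0.0212 FPKM at day 0, 0.0478 at day 2, 0.140 at day 3, 1.32 at day 4, 3.43 at day 6 and 69.0 at day 30. MYH7, the slow ventricular chain, lies beside it at chr14:23412738-23435718 and had 0.0113 FPKM at day 0, 0.133 at day 6 and 28.9 at day 30. Both chains were thus low until day 6, with MYH6 the higher of the 2 at day 30, though reads of these near-identical genes may have been split. PLN, which restrains the calcium pump SERCA, had 0 FPKM at day 0, 0.289 at day 6 and 60.1 at day 30, at least 582-fold higher. MYBPC3, the thick-filament binding protein, had 0.0161, 0.0405 and 17.7 FPKM, and CSRP3, a protein of the Z-disc, had 0, 0 and 17.0.

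A pair of muscle genes came earlier. ANKRD1, a stretch-responsive cofactor, had 15.6 FPKM at day 4, 34.8 at day 6 and 31.5 at day 30. MYL4, the atrial essential light chain, had 61.9 FPKM at day 6 and 20.2 at day 30. These were the 2 of 10 that were higher at day 6. MYL3, the ventricular essential light chain, had 1.53 and 25 FPKM on those days, TRIM63, a ubiquitin ligase of the sarcomere, 0.0225 and 16.2, and CKM, muscle creatine kinase, 0.733 and 12.3.

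Of 38 sarcomere genes listed, 32 were higher, 1 was lower, 1 was not called and 4 lay under 1 FPKM on both days. Their summed level went from 64.9 to 605 FPKM, and the median difference was 2.32. Defining markers that missed the on rule rose too, with TNNT2, cardiac troponin T, from 0.114 to 14.8 FPKM, and MYL7, the atrial regulatory light chain, from 0.236 to 64.0 after 336 at day 6. MYL2, the ventricular regulatory light chain, rose from 0 to 4.10 FPKM. TNNI3, cardiac troponin I, had 2.61 and 1.07 FPKM and was not called, while TNNI1, its fetal counterpart, rose from 0.174 to 6.87. ACTA1, skeletal alpha-actin, fell from 32.2 to 4.60. At day 30 MYL7 thus stood above MYL2 and TNNI1 above TNNI3, whereas the atrial MYL4 did not stand above the ventricular MYL3.

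Genes for calcium and current had smaller median differences. Of 19 calcium handling genes in the table, 7 were higher and 2 lower, with a median difference of 0.51 and FKBP1B, a subunit of the ryanodine receptor, falling from 12.2 to 1.59 FPKM. Of 26 ion channel and pacemaker genes, 8 were higher and 1 lower, with a median difference of 0.46. The lower gene was HCN4, the pacemaker channel, from 17.9 to 1.46 FPKM. Among the 15 calcium handling genes compared 46.7% were higher, and among the 16 channel genes 50%, beside 25.9% of all genes compared. Of 33 genes of heart metabolism, 15 were higher and 3 lower, led by PDK4, the kinase that shuts pyruvate dehydrogenase, which was on at 106 FPKM from 0.0457. Of 17 natriuretic and hormone genes, 9 were higher and 1 lower. NPPA rose from 0.123 to 11.9 FPKM and NPPB from 1.88 to 28.3, while NPR3, the clearance receptor for these peptides, was on at 28.1 FPKM from 0.0209. AGTR1, the angiotensin receptor, was on at 16.4 FPKM and EDN1, endothelin 1, at 13.5, both from 0.

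Matrix genes reached the highest levels among those on. COL3A1, the fibrillar collagen of soft tissue, had 0 FPKM on days 0 and 2, 0.0307 at day 3, 0.595 at day 4, 174 at day 6 and 4173 at day 30. It drew 351155 reads at day 30, at chr2:188974320-189012746. LUM, a small proteoglycan that spaces collagen fibrils, had 0, 0, 0.0232, 0.0841, 60.1 and 373 FPKM. Its neighbour DCN had 0.0630 FPKM at day 6 and 39.7 at day 30. LUM thus preceded DCN, although both lie within chr12:91102629-91183123. MMP1, which cuts fibrillar collagen, was at 0 FPKM on days 0 to 6 and at 56.5 at day 30. COL15A1, of basement membranes, had 0.513 FPKM at day 6 and 50.1 at day 30, and RELN, a secreted glycoprotein, 24.6 and 17.4.

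Related genes that missed the on rule rose with them. Of 44 collagens, 30 were higher and 2 lower, with a summed level of 234 FPKM at day 0 and 8142 at day 30, and a median difference of 1.65. COL1A1 rose from 8.40 to 668 FPKM, COL1A2 from 8.10 to 479 and COL6A3 from 0.543 to 210.2. COL9A1, of cartilage, fell from 2.72 to 0.190. Of 40 proteoglycan and elastic matrix genes 30 were higher and 1 lower, and of 32 matrix proteases and inhibitors 23 were higher and 2 lower. FMOD rose from 0.142 to 381 FPKM, PAPPA, a protease that frees IGF from its binding proteins, from 0.107 to 261, and TIMP1, an inhibitor of metalloproteases, from 25.5 to 1282. TGFBI, a cell-adhesion protein of the matrix, rose from 1.37 to 401.

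Of 28 fibroblast markers, 19 were higher and 1 lower, and 2, DPT and PI16, were at 0 on both days. POSTN rose from 0.151 to 132 FPKM, TWIST1 from 0.169 to 120.5 and PDGFRA from 0.163 to 59.1. THY1, shared with stem cells, fell from 82.4 to 3.51. Of 22 smooth muscle and pericyte markers 17 were higher and none lower, with PDGFRB at 182 FPKM and ACTA2 at 37.8 at day 30. Of 20 epicardial markers 12 were higher and 1 lower. Of 31 endothelial and endocardial markers 13 were higher, 1 was lower and 14 lay under 1 FPKM on both days. Of the 17 endothelial markers compared, 76.5% were higher, beside 25.9% of all genes compared. The summed level of this list went from 110.7 to 178.1 FPKM. CDH5, which joins endothelial cells, was among those under 1 FPKM on both days. It had 0.0566 FPKM at day 0, 3.76 at day 6 and 0.319 at day 30.

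Growth factors and secreted signals gave 14 on genes. DLK1, a Notch-related inhibitor of differentiation, had 0.0777 FPKM at day 0, 1.08 at day 2, 21.9 at day 3, 38 at day 4, 16.9 at day 6 and 1900.4 at day 30. IGF2, the fetal insulin-like growth factor, had 0.00986, 0.0178, 0.410, 2.48, 17.1 and 163 FPKM. RSPO3, which strengthens WNT signals, had 0 FPKM at day 0, 40.9 at day 2, 6.82 at day 3, 0.896 at day 4, 9.50 at day 6 and 55.2 at day 30. RSPO3 was thus high at both ends of the course after day 0, while DLK1 and IGF2 had most of their rise after day 6. BMP10, a ligand of trabecular heart muscle, had 3.98 FPKM at day 6 and 29.8 at day 30. GREM1, a BMP antagonist, had 0.178 and 30.5 FPKM, HGF, a growth factor made by mesenchyme, 0.0530 and 29.6, and INHBA, a subunit of activin, 0.153 and 21.1.

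Of 36 BMP and TGF-beta ligands and antagonists, 31 were compared, with 19 higher and 3 lower. NOG fell from 16.0 to 0.556 FPKM. Of 34 WNT ligands and antagonists 16 were compared, with 10 higher and 2 lower, and SFRP2 fell from 399 to 14. Of 23 FGF ligands and receptors 13 were compared, with 4 higher and 6 lower. FGF7, a signal from mesenchyme to epithelium, was the 1 member on, at 11.2 FPKM. Of the compared members, 61.3% were higher for BMP and TGF-beta, 62.5% for WNT and 30.8% for FGF, beside 25.9% of all genes compared. Of the receptors and channels on, KCNE4, a potassium channel subunit, was at 0 FPKM on days 2 to 6 and at 84.0 at day 30, and AQP1, a water channel, had 3.01 FPKM at day 6 and 38.1 at day 30.

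Genes of inflammation and immunity were the largest on group, with 24 members and a median of 29.1 FPKM at day 30. CXCL8, a chemokine for neutrophils, was at 0 FPKM from day 0 to day 4, at 0.0254 at day 6 and at 123 at day 30, at least 1352-fold above day 0. IL24, a cytokine of the IL-10 family, and CCL20, a chemokine for lymphocytes, were at 0 on days 0 to 6 and at 73.8 and 50.5 at day 30. IL6 had 0 FPKM at day 0, 1.10 at day 4, 0 at day 6 and 36.8 at day 30, and IL1B 18.7 at day 30. None of the 24 reached 10 FPKM before day 30, and 14 were under 0.1 FPKM on all of days 2 to 6. The group is thus a feature of the day 30 library.

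Receptors of the interleukin-1 family stood beside each other among the on genes. IL1RL1, the receptor of IL-33, IL18R1 and IL18RAP lie within chr2:102311502-102452565. IL1RL1 had 0 FPKM at day 0, 1.02 at day 4, 0.121 at day 6 and 87.3 at day 30. IL18R1 reached 37.6 FPKM and IL18RAP 13, from 0.0158 and 0. IL1R1, the receptor of interleukin 1, had 0.0583 FPKM at day 0, 0.858 at day 6 and 114 at day 30, a fold of 1954 (898 to 5326). CHI3L1, a secreted glycoprotein, reached 110 FPKM, ACKR3, a scavenging chemokine receptor, 69.6, and VCAM1, an adhesion molecule for white cells, 14.

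Of 31 chemokine and cytokine genes listed, 25 were higher and none lower, with a median difference of 3.04 and a summed level of 40.0 FPKM at day 0 and 888 at day 30. PTGS2, the inducible cyclooxygenase, rose from 1.08 to 139.7 FPKM and CXCL1 from 0.797 to 88.3. Of 30 blood and macrophage markers, 9 were higher, none was lower and 15 lay under 1 FPKM on both days, and their summed level was 21.2 and 50.2 FPKM. CD68 was at 0 on both days, PTPRC, the pan-leukocyte antigen, had 0 and 0.0618 FPKM, and CD14 rose from 0 to 4.98. Of the 15 markers compared, 60% were higher, beside 25.9% of all genes compared. Which cells carried the inflammatory transcripts was not tested.

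The group formed by hand of liver plasma proteins and liver metabolism gave 20 on genes, with a median of 0.856 FPKM at day 6 and 22.9 at day 30. AFP, the main plasma protein of the fetus, had 0.0211 FPKM at day 0, 0 on days 2 to 4, 1.10 at day 6 and 299 at day 30. Its neighbour ALB, albumin, had 0, 0.0856 and 14.5 FPKM on days 0, 6 and 30. AFP thus stood above ALB at day 30. The 3 chains of fibrinogen, which forms the clot, were on within chr4:154562956-154612967. FGB had 0 FPKM at day 0, 27.3 at day 6 and 61.8 at day 30, FGA had 0, 6.49 and 22.6, and FGG had 0.0574, 0.611 and 14.3.

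Other genes placed in this group were SERPINA1, the elastase inhibitor of plasma, at 114 FPKM, and the apolipoproteins APOA4 at 67.6 and APOA2 at 63.4. TTR, a carrier of thyroid hormone, had 66.9 FPKM at day 6 and 38 at day 30 and was the 1 member of the group higher at day 6. Of 38 hepatic and endoderm markers, 28 were higher, 1 was lower and 5 were compared but not called. The other 4, among them TF at 0.488 FPKM and APOH at 0.182 at day 30, lay under 1 FPKM on both days. None of the 38 was at 0 at day 30. Their summed level was 15.9 FPKM at day 0 and 1030.5 at day 30, and their median difference was 2.74. APOA1, which missed the on rule at 0.145 FPKM at day 0, rose to 125 after 264 at day 6, and FOXA3 fell from 9.45 to 3.91. FOXA2 and SOX17, which also missed the on rule, were at 0 FPKM at day 0. They had 40.7 and 79.4 FPKM at day 2, and 4.10 and 2.38 at day 30. The genes grouped as liver were thus in the same library as the heart and gut genes, and whether they came from separate cells was not tested.

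Epithelial genes added 16 on genes, all of which first reached 10 FPKM at day 30. SLPI, an inhibitor of elastase at mucosal surfaces, had 0 FPKM at day 0, 0.388 at day 6 and 216 at day 30, and its neighbour PI3, a related inhibitor, 0, 0 and 24.7. CEACAM5 and CEACAM6, adhesion molecules of gut epithelium, were at 0 at day 0 and day 6 and at 61.8 and 72.8 at day 30. They are closely related in sequence and lie within 63.6 kb, so their separate levels are uncertain. MUC13, a mucin of the gut surface, reached 32.6 FPKM, KRT20, an intestinal keratin, 25.4, and KRT17, a keratin of basal cells, 38.2. CDX2, the homeobox factor of intestine, was counted with the other transcriptional regulators and not among these 16. It had 4.54 FPKM at day 2, 1.42 at day 6 and 18 at day 30.

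Of 26 gut and lung markers, 15 were higher and 1, SOX2, was lower, with a median difference of 1.86. CDH17, an intestinal cadherin, rose from 0.229 to 46.0 FPKM. NKX2-1, the factor of lung and thyroid, was at 0 on both days. Of 22 genes of epithelial adhesion 6 were higher and 6 lower.

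**Figure D3:**
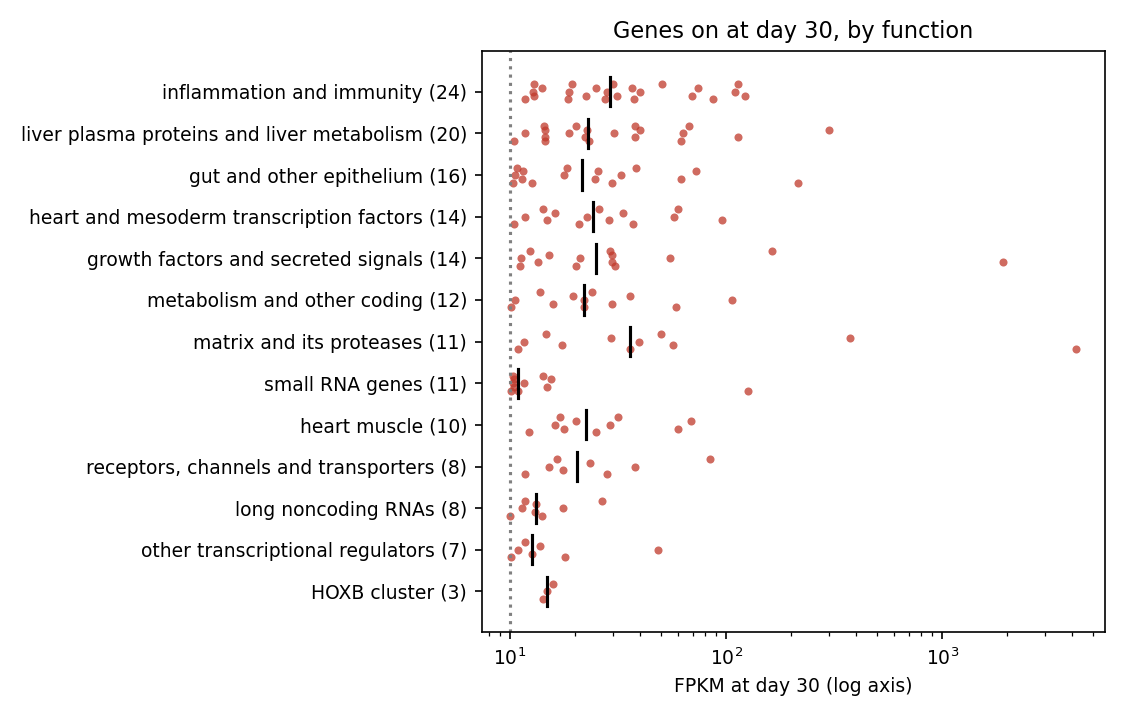
Each red point is a gene on at day 30, with its FPKM at day 30 on a log axis and its function group, with the number of genes, on the y axis. Black bars are group medians and the dotted line is the limit of 10 FPKM. Matrix genes have the highest median among the larger groups, at 36.0 FPKM, and inflammatory genes follow at 29.1.

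The order in time differed between the groups. Of the 158 on genes, 4 first reached 10 FPKM at day 2, 4 at day 3, 4 at day 4, 21 at day 6 and 125 (79.1%) at day 30. On all of days 0 to 6, 41 were under 0.1 FPKM, and on days 2 to 6 89 were under 1. The highest of the 6 days was day 30 for 141 genes, and 15 were higher at day 6 than at day 30. By day 6, 9 of 14 heart and mesoderm factors and all 3 HOXB genes had reached 10 FPKM. The same held for 4 of 11 matrix, 2 of 10 heart muscle and 3 of 20 liver genes. None of the 24 inflammatory or 16 epithelial genes had reached it. Day 30 was the first such day for 10 of 14 growth factors and secreted signals. It was also the first for 5 of 8 receptors, channels and transporters and 5 of 8 long noncoding RNAs. No library lies between day 6 and day 30. When genes first at 10 FPKM at day 30 came on within those days was thus not measured.

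**Figure D4:**
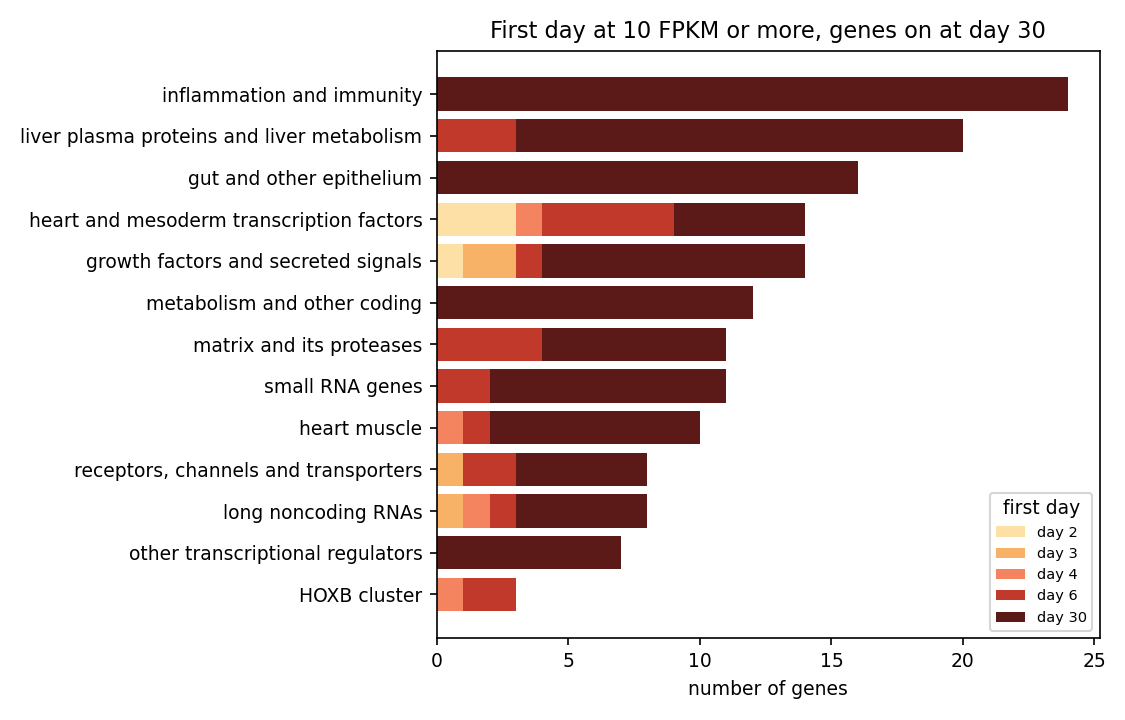
Bars give the number of on genes in each function group, split by the first day at which the gene had 10 FPKM or more, from day 2 (lightest) to day 30 (darkest). All 24 inflammatory and all 16 epithelial genes are darkest, while 9 of 14 heart and mesoderm factors reach the level by day 6.

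Some on and off genes lay beside each other on the chromosome. Of the 158 on genes, 39 had another on gene within 100 kb and fell into 16 clusters, and 25 of the 70 off genes fell into 12. Several of these clusters are a gene with a small RNA or antisense gene inside or beside it, and the share among all genes compared was not computed. IGF2, IGF2-AS and MIR483 lie in chr11:2129112-2149603, where IGF2-AS reached 14 FPKM and MIR483 126 from 118 reads. Sense and antisense partners also came on as GATA6 with AC091588.1, HAND2 with HAND2-AS1 and HOXB3 with HOXB-AS2, and their reads cannot be told apart without strand. GDF3 and NANOG went off within chr12:7689782-7799141, and ZIC5 and ZIC2 within chr13:99962964-99986773. All 11 small RNA genes on overlapped a gene of at least 1 FPKM, such as MIR3606 in COL3A1, MIR4772 in IL18RAP and MIR145 in CARMN, and rested on 8 to 118 reads.

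The last on genes had no common function, with 12 of metabolism and other kinds, 8 receptors, channels and transporters, 7 other transcriptional regulators and 8 long noncoding RNAs. TCIM, a small regulator of WNT signalling, reached 48.6 FPKM, TM4SF1, a surface protein of endothelium and epithelium, 58.5, and TYMP, thymidine phosphorylase, 36.0. LHX2, a LIM homeobox factor, had 10.9 FPKM and ZBTB16, a zinc finger repressor, 12.6. The 8 long noncoding RNAs on were led by DIO3OS at 26.6 FPKM, and MIR100HG reached 11.8. DIO3, the enzyme that inactivates thyroid hormone and the neighbour of DIO3OS, was already at 1.80 FPKM at day 0 and rose to 1106. CEBPD, a factor of acute-phase and fat cells, likewise missed the on rule and rose from 1.33 to 903 FPKM. The other greatest rises of coding genes outside the on list were those of FMOD, PAPPA, TGFBI, C11orf96, COL6A3 and AREG.

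Most cell cycle genes were lower. Of 35 cell cycle genes, 33 were lower and none higher, with a median difference of -2.51 and a summed level of 1517 FPKM at day 0 and 237 at day 30. TOP2A, which untangles DNA, fell from 142 to 20.7 FPKM and MKI67, a marker of dividing cells, from 28.7 to 5.35. Of 19 inhibitors of the cycle and senescence genes, 11 were higher, with CDKN1C rising from 10.1 to 474 FPKM. Of 20 glycolysis genes 8 were lower and 2 higher. Of 24 neuron and neuroectoderm genes 14 were compared, with 9 lower and 3 higher, among the latter STMN2 from 0.612 to 25.8 FPKM. Of 21 genes of DNA methylation and chromatin in stem cells 8 were lower and 1, TET2, higher.

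Further lists were represented to differing degrees. Of 34 complement and coagulation genes 22 were higher and none lower, led by TFPI2, an inhibitor of clotting, from 3.21 to 491 FPKM, and of 19 genes of the IGF axis 10 were higher and 2 lower. Of 19 genes of the NOTCH pathway 16 were compared, with 8 higher (50%) and 2 lower. HES4 rose from 4.25 to 90.9 FPKM, and the ligand DLL3 fell from 14.9 to 0.618. Markers of other tissues were also counted. Higher and lower members numbered 4 and 0 of 12 for fat, 7 and 4 of 25 for cartilage and bone, 5 and 3 of 21 for neural crest, 4 and 1 of 17 for kidney, 3 and 2 of 21 for skeletal muscle, and 2 and 4 of 24 for germline and early embryo. In these 6 lists between 6 and 18 members lay under 1 FPKM on both days. Of the 6 to 15 members compared in each, 66.7% were higher for fat, 57.1% for kidney and 46.7% for cartilage and bone. The share was 42.9% for skeletal muscle, 41.7% for neural crest and 33.3% for germline, beside 25.9% of all genes compared.

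**Figure D5:**
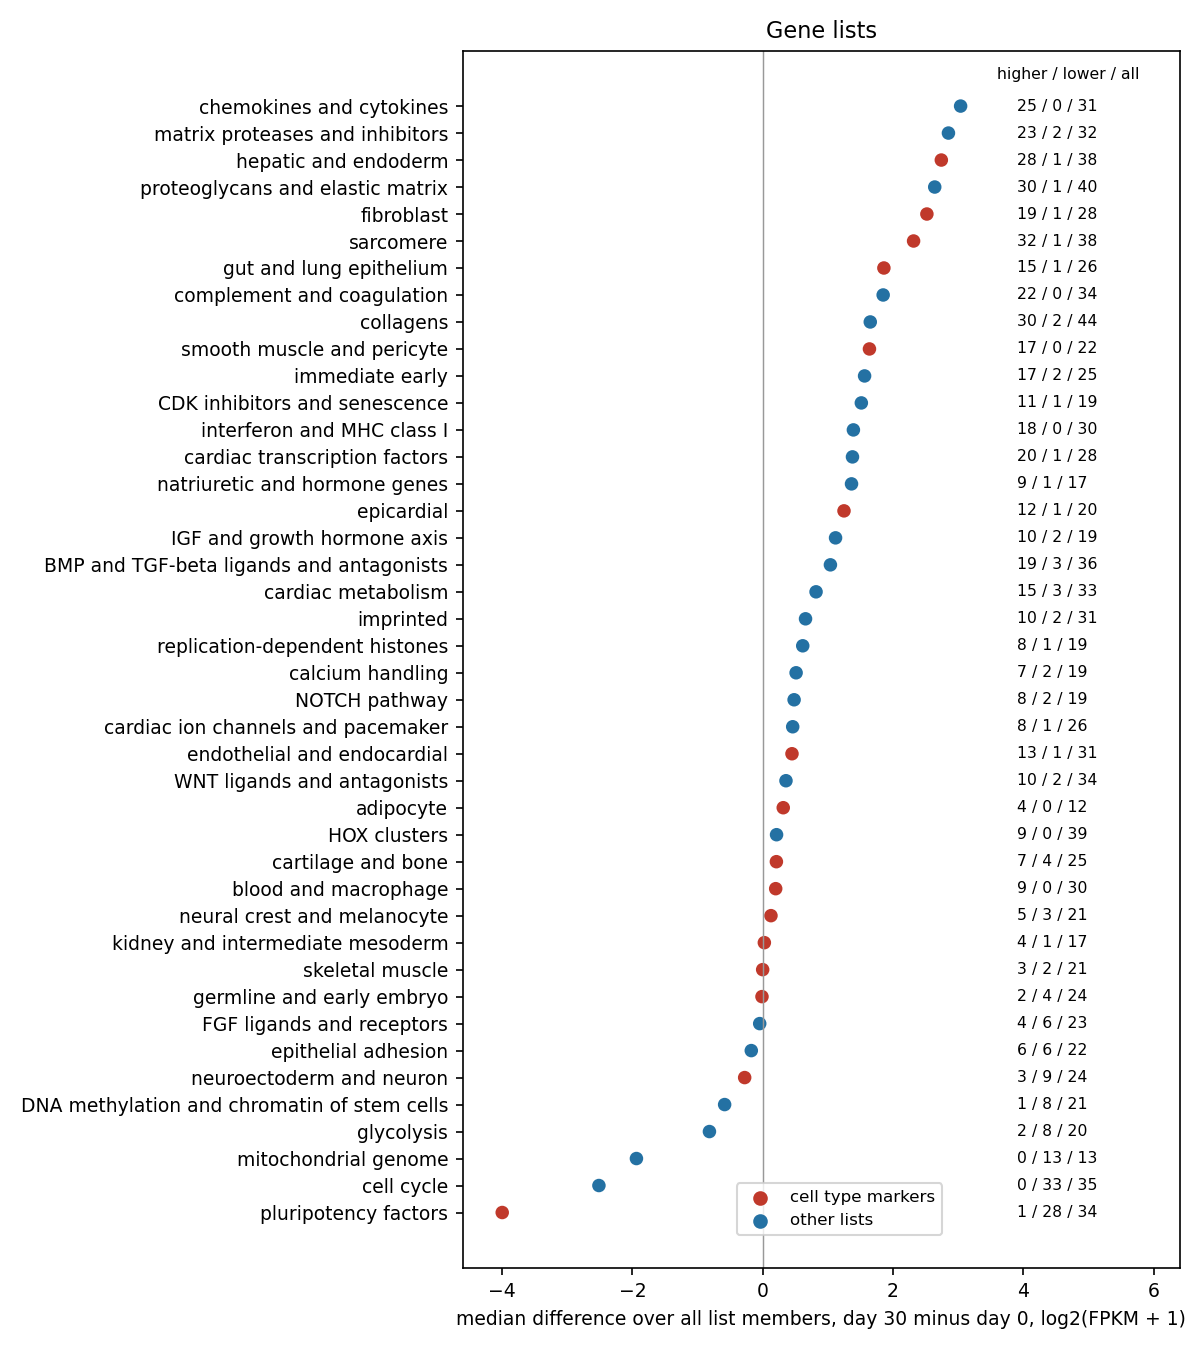
Points give, for each of 42 gene lists, the median difference in log2(FPKM + 1), day 30 minus day 0, over all members, with the members higher, lower and in all printed at the right. Lists run from pluripotency factors at -4.0 to chemokines and cytokines at 3.04. The median over all genes compared, 0.13, leaves out genes under 1 FPKM on both days, whereas the points include such members. Over compared members only, the lists run from pluripotency factors at -4.18 to fibroblast markers at 4.06, and HOX clusters go from 0.213 to 2.56.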

How the data were processed

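Per the labels' protocols, poly-A RNA was fragmented and copied from random hexamers. Per the submitters' processing notes, CASAVA, HISAT2 and featureCounts 1.5.0-p3 were used. Not given in the sources used here are their settings, the build and strandedness. The authors deposited 1 table of FPKM values with gene length and position, and all 58735 positions equal those of GENCODE release 29 on GRCh38. In every library FPKM times gene length came in whole steps (tolerance 0.001 read), so reads were recovered. Totals lay between 13500887 and 15526924. Denominators behind the deposited FPKM were 0.980 times the total at day 0 and 0.826 times at day 30. At 1 kilobase, 1 read is worth 0.0688 FPKM at day 0 and 0.0809 at day 30.

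Differences were taken on log2(FPKM + 1), which understates changes of low genes. Fold intervals are exact conditional binomial. Reads are not molecules counted by identifiers, so intervals may be too narrow. With 1 library per day there was no test. The steps were tested on simulated reads. Members and lists were chosen with earlier results of these data known. Named genes are the 15 coding genes with the greatest rise and fall, the extreme and contrary members of 42 lists, the highest members of families, genes next to the thresholds, and others chosen after their values were seen. Lists share some genes. A few genes that this rule names are not reported here. Python 3.11.15, pandas 2.3.3, scipy 1.17.1 and matplotlib 3.10.9 were used. Alternatives were other scalings, pseudocounts, minimums and thresholds.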

Additional observations from a re-analysis of the deposited data

How the results depend on the processing

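Counts moved with the scaling and the thresholds. Scaling to TPM gave 8138 genes higher, 5538 lower, 404 on and 166 off, since the same limits then lie lower. A minimum of 5 FPKM gave 2730 higher and 2115 lower, and a difference of 2 gave 1513 and 856. The limits under 0.1 and at least 5 FPKM gave 279 on and 110 off, under 0.5 and at least 10 gave 271 and 116, and under 0.1 and at least 20 gave 82 on. Requiring 0 reads on the silent day left 86 on, and protein-coding genes alone gave 24 off. Scaling by total reads kept 128 of the 158 on genes and 69 of the 70 off genes, the median ratio 154 and 70, and TPM 110 and 57. Of 923 single-gene values, 43 lost their call with total reads, 4 with the median ratio and 1 with TPM, and no called gene changed direction under these scalings or a pseudocount of 0.1. Of 126 list counts and medians, 33 moved with that pseudocount, 30 with TPM, 4 with total reads and none with the median ratio. No paired analysis was possible because each day had 1 library. Genes of few reads, small RNAs above all, are limited by depth, and cell culture, harvest and library cannot be told apart from the day.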

Other observations

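Imprinted genes, which are expressed from 1 parental copy, included several of the greatest rises. Of 31 listed, 10 were higher at day 30, 2 were lower and 12 were compared but not called. DLK1, RTL1 and DIO3, all of the imprinted region of chromosome 14, reached 1900.4, 10.1 and 1106 FPKM. PLAGL1, a zinc finger factor, rose from 0.118 to 64.2 FPKM. NLRP2 fell from 19.1 to 3.72 and SNRPN from 10.6 to 3.06. Of the 24 members compared, 41.7% were higher, beside 25.9% of all genes compared. The median difference was 0.66 over all members and 0.71 over those compared, beside 0.13 for all genes compared.

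Immediate early genes, which cells switch on within minutes of a stimulus, were higher in 17 of 25 cases and lower in 2. KLF2, induced by flow in endothelium, rose from 0.614 to 73.5 FPKM, JUNB from 6.88 to 157 and DUSP1 from 10.6 to 209, while EGR1 fell from 72.3 to 6.81. Of 30 interferon and MHC class I genes 18 were higher and none lower, with B2M, the light chain of MHC class I, rising from 17.4 to 154 FPKM. All 13 coding genes of the mitochondrial genome were lower, with MT-ND1, a subunit of complex I, falling from 3510 to 479 FPKM. Of 19 histone genes, whose main transcripts carry no poly-A tail, 10 were compared. Of these 8 were higher, or 80%, beside 25.9% of all genes compared. HIST1H2BK led them, from 5.06 to 114 FPKM, and 1, HIST2H2AC, fell from 3.18 to 1.04.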
